A study of Rattus norvegicus with 16 samples.

Results

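The cornified envelope genes described here were 9 listed rat genes, Sprr3, Sprr1a, Ivl, Evpl, Ppl, Tgm1, Tgm3, Cnfn and Scel, found on the arrays by matching each probe's transcript accession to a gene symbol. Of the 9 genes, 8 were measured, by 9 probes out of 30367 on the array, which name 15159 genes. Scel had 2 probes, the other measured members had 1 each, and Sprr1a had no matching probe and is not analysed here. The list was drawn up around Sprr3, which was already known to rank among the largest rises after treatment with dextran sodium sulfate (DSS), an agent that injures and inflames the colon, in these same arrays. The members were thus chosen by the levels in DSS-treated against untreated rats, and those comparisons are described below with no p-value. The comparisons between genotypes, which were not used to choose the list but share its DSS-treated arrays, were tested. The difference between the DSS changes of the genotypes is made of the values that chose the list, and its p-values are description only.

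RNA of normal distal colon from 16 male rats was hybridized to single-color Agilent arrays. All of the rats were first-generation offspring of a cross between the ACI and F344 strains and were 97 days old. They carried either 2 normal copies of Apc (wildtype) or 1 copy of the Pirc allele, a mutation of Apc that gives rise to colonic adenomas (Pirc/+, here called Pirc). Within each genotype, 4 rats were left untreated and 4 drank water with 4% DSS from day 40 to day 47 and again from day 54 to day 61, so that sampling came 36 days after the last DSS. The 4 untreated wildtype rats were numbered 13, 17, 21 and 25 and the 4 DSS-treated wildtype rats 14, 18, 22 and 26. The 4 untreated Pirc rats were numbered 11, 15, 19 and 23 and the 4 DSS-treated Pirc rats 12, 16, 20 and 24. The Pirc rats carried the mutation in every tissue, and the samples were bulk tissue labelled as normal.

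The cornified envelope is the tough protein shell that replaces the plasma membrane of the outermost cells of the epidermis and other stratified squamous epithelia. Its assembly begins with the plakin scaffold proteins envoplakin (Evpl) and periplakin (Ppl) and with involucrin (Ivl) beneath the membrane, and small proline-rich proteins such as Sprr3 and Sprr1a are then cross-linked into it by the transglutaminases Tgm1 and Tgm3. Cornifelin (Cnfn) and sciellin (Scel) are further proteins of the envelope or its precursor. The normal lining of the colon is a single layer of columnar cells and makes no cornified envelope, although some of these genes, Evpl and Ppl among them, are also active in simple epithelia.

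Promoter sequences are shown for 3 members that the results below turn on, Scel and Cnfn, which were high in the same rats, and Tgm3, which was not. Each run covers the bases from 250 before to 50 after the annotated transcription start in the RefSeq annotation of the GRCr8 assembly, written from 5′ to 3′ on the strand of the gene, with capitals marking any match to 4 short motifs. These were the AP-1 motif TGANTCA, the grainyhead-like motif AACCNGTT, the KLF motif CCACNCCC and the TATA motif TATAAA, each searched on both strands, and no 2 matches overlapped.
Scel, chr15:86754382-86754681, plus strand: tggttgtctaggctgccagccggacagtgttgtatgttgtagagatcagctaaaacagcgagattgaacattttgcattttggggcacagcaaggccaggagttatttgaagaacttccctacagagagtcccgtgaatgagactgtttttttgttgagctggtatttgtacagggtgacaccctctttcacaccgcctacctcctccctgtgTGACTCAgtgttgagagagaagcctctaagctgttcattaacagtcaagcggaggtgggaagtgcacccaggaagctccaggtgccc
Cnfn, chr1:90081507-90081806, minus strand: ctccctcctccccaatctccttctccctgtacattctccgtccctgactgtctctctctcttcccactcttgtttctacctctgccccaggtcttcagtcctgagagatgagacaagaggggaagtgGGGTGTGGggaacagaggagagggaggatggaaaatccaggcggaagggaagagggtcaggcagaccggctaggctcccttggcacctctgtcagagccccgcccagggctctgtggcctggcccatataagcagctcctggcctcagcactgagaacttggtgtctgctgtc
Tgm3, chr3:137681559-137681858, plus strand: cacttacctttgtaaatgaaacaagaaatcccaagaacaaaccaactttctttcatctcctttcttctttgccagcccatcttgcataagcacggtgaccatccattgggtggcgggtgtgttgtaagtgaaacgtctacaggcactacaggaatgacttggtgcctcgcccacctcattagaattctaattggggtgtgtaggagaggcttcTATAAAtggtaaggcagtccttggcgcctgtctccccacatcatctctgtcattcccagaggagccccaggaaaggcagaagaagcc
Scel held 1 AP-1 motif, TGACTCA, whose first base lay at position -37 from the start. Cnfn held 1 KLF motif on the opposite strand, GGGTGTGG, at position -123, and Tgm3 held 1 TATA motif at position -37. Over the 33465 RefSeq promoters of the same length, 7.33% held the AP-1 motif, 2.10% the grainyhead-like motif, 15.2% the KLF motif and 14.2% the TATA motif. The promoter of Sprr1a, which had no probe, held 2 AP-1 motifs and 1 TATA motif, and those of Ivl, Ppl and Tgm1 held none of the 4. Sprr3 and Evpl had no entry. In the gene order of the same assembly Sprr1b, Sprr3, Sprr1a, Sprr4 and Ivl were consecutive protein-coding genes on chromosome 2, within the epidermal differentiation complex, the gene cluster that holds many envelope precursors. Ppl and Evpl both lay on chromosome 10, Tgm1 and Scel on chromosome 15, Cnfn on chromosome 1 and Tgm3 on chromosome 3.

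Levels are given as the log2 of a probe's signal relative to the 75th percentile of all gene spots on its array, so that a level of 0 equals that percentile and a difference of 1 is a factor of 2. Because probes differ in their response, a level of one gene is not compared with a level of another. The array correlations over all probes ran from 0.959 to 0.993, and 14 of the 16 arrays lay nearest to an array of their own group. The exceptions were DSS-treated wildtype rat 26, which lay nearest an untreated wildtype rat, and untreated Pirc rat 23, which also lay nearest an untreated wildtype rat. Colonocyte markers were well above background on all 16 arrays (12 of 12 measured), and all 6 measured goblet cell markers were as well. For rat 26, the members' values and the counts of calls are also given without it. In bulk tissue, fewer cells of a type and less RNA per cell cannot be told apart.

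In Pirc rats 5 of the 8 measured members were called higher after DSS (limma, at least a factor of 2, adjusted p no greater than 0.05), namely Sprr3, Cnfn, Scel, Tgm1 and Ppl, and 1, Tgm3, was lower. Among all probes 7.46% were called in this comparison, 5.51% higher and 1.95% lower. In wildtype rats 3 members were called higher after DSS, Sprr3, Scel and Tgm1, and 0 lower, where 2.77% of all probes were called, 2.37% higher and 0.402% lower. Without rat 26, 5 members were called higher in wildtype rats, Ppl and Cnfn in addition, where 3.88% of all probes were called. Over both genotypes the counts were 5 higher and 1 lower, with 5.99% of all probes called, 5% higher and 0.988% lower. As DSS comparisons chose the list, nothing is read from these counts. The median log2 change over the 8 members was 4.88 in Pirc rats and 2.18 in wildtype rats (0.04 and 0.09 over all probes). Nothing is read from these medians either. They include Ivl, which was never well above background, and the nominal change of Scel.

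**Figure D1:**
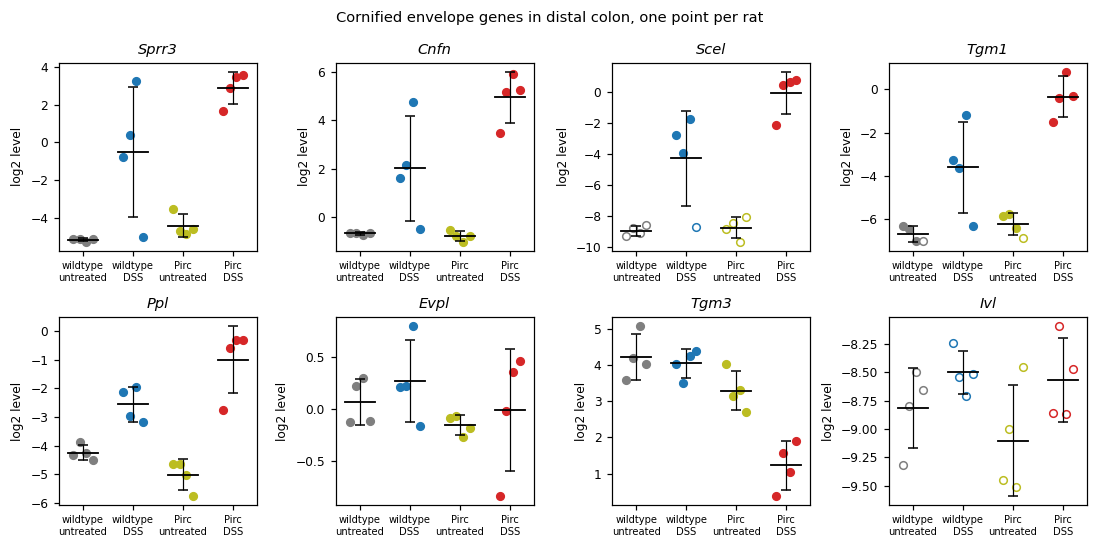
Level of each measured member (vertical axis, log2 signal relative to the 75th percentile of the array) in every rat of the 4 groups; filled points were well above background and open points were not, the long bar is the group mean and the error bar its SD (n = 4). Sprr3, Cnfn, Scel, Tgm1 and Ppl had their highest group mean in DSS-treated Pirc rats, and all of these but Ppl spread widely in DSS-treated wildtype rats. Tgm3 was lowest in DSS-treated Pirc rats, and Ivl was never well above background.

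Among the precursors that are cross-linked into the envelope, Sprr3, a small proline-rich protein of internal stratified epithelia such as the esophagus, stood at levels of -5.14, -5.15, -5.30 and -5.12 in untreated wildtype rats 13, 17, 21 and 25. In DSS-treated wildtype rats 14, 18, 22 and 26 it stood at -0.77, 0.39, 3.28 and -5.03. The untreated Pirc rats 11, 15, 19 and 23 had levels of -3.55, -4.69, -4.84 and -4.60. The 4 untreated wildtype rats lay close together (SD 0.08), 3 of the DSS-treated wildtype rats were far above them, and rat 26 was barely above the highest of them. The DSS-treated Pirc rats 12, 16, 20 and 24 had levels of 1.67, 2.89, 3.45 and 3.56, all far above the untreated Pirc rats. The log2 change with DSS was 7.31 (SE 1.16) in Pirc rats, a factor of 159.1, and 4.64 (SE 1.16) in wildtype rats. Without rat 26 the wildtype change was 6.15, and without rat 22, the highest of that group, 3.37.

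Ivl, a glutamine-rich precursor typical of suprabasal keratinocytes, was not well above background on any of the 16 arrays. Its background-level values ran from -9.51 to -8.09 in all, and no change is given for it.

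Cnfn, a small cysteine-rich envelope protein, was at -0.65, -0.65, -0.75 and -0.65 in untreated wildtype rats 13, 17, 21 and 25. It was at 1.64, 2.15, 4.76 and -0.50 in DSS-treated wildtype rats 14, 18, 22 and 26. The order of the DSS-treated wildtype rats was that of Sprr3, with rat 22 at the top and rat 26 just above the untreated wildtype rats. In untreated Pirc rats 11, 15, 19 and 23 the levels were -0.52, -0.80, -1.04 and -0.78, and in DSS-treated Pirc rats 12, 16, 20 and 24 they were 3.47, 5.20, 5.94 and 5.27. The log2 change with DSS was 5.75 (SE 0.78) in Pirc rats and 2.69 (SE 0.78) in wildtype rats, the latter 3.52 without rat 26 and 1.77 without rat 22.

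Scel, a precursor whose promoter is shown above, was not well above background in any of the 8 untreated rats. It was well above background in all 4 DSS-treated Pirc rats, at -2.11, 0.50, 0.65 and 0.81 in rats 12, 16, 20 and 24. Of the DSS-treated wildtype rats, 14, 18 and 22 had measurable levels of -2.77, -3.90 and -1.72, and rat 26, at -8.74, did not. Since the untreated groups give only an upper bound, the Scel level was at least 376-fold higher after DSS in Pirc rats. In wildtype rats no fold is given over all 4 treated rats, since only 3 gave a measurable level, and without rat 26 Scel was at least 60.2-fold higher in the other 3. These bounds set the mean of the treated group against the lowest signal that was well above background on each untreated array, or the probe's own signal where that was higher. The second Scel probe, which was the dimmer one, ran from -3.17 to -0.50 in DSS-treated Pirc rats and gave a bound of at least 143-fold in Pirc rats and, without rat 26, of at least 27.4-fold in wildtype rats.

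Among the scaffold proteins, Ppl was at -4.33, -3.87, -4.24 and -4.52 in untreated wildtype rats 13, 17, 21 and 25 and at -2.12, -2.97, -1.96 and -3.19 in DSS-treated wildtype rats 14, 18, 22 and 26. It was at -4.62, -4.64, -5.02 and -5.76 in untreated Pirc rats 11, 15, 19 and 23 and at -2.76, -0.59, -0.32 and -0.33 in DSS-treated Pirc rats 12, 16, 20 and 24. Neither genotype showed overlap between treated and untreated rats, and rat 26 too lay above every untreated rat. The log2 change was 4.01 (SE 0.48) in Pirc rats and 1.68 (SE 0.48) in wildtype rats, the latter 1.89 without rat 26. Groups without overlap in either direction were found for 16.9% of all probes in Pirc rats and for 12.4% in wildtype rats.

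Evpl, the partner of Ppl in the plakin heterodimer, ran from -0.13 to 0.30 in untreated wildtype rats, from -0.16 to 0.81 in DSS-treated wildtype rats, from -0.27 to -0.06 in untreated Pirc rats and from -0.84 to 0.46 in DSS-treated Pirc rats. The groups overlapped in both genotypes. The log2 change with DSS was 0.14 (SE 0.26) in Pirc rats and 0.20 (SE 0.26) in wildtype rats, the latter 0.34 without rat 26. Both partners were well above background on all 16 arrays.

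Of the cross-linking enzymes, Tgm1, the membrane-bound transglutaminase of keratinocytes, was at -6.31, -6.44, -7.01 and -7.01 in untreated wildtype rats 13, 17, 21 and 25. It was at -3.25, -3.65, -1.19 and -6.31 in DSS-treated wildtype rats 14, 18, 22 and 26. In untreated Pirc rats 11, 15, 19 and 23 it was at -5.87, -5.78, -6.42 and -6.87, and in DSS-treated Pirc rats 12, 16, 20 and 24 it was at -1.50, -0.41, 0.82 and -0.29. The treated and untreated Pirc rats did not overlap, whereas in wildtype rats the value of rat 26 fell inside the untreated range. The log2 change was 5.89 (SE 0.77), a factor of 59.1, in Pirc rats and 3.09 (SE 0.77), a factor of 8.52, in wildtype rats, the latter 3.99 without rat 26 and 2.29 without rat 22. In each untreated group 3 of the 4 rats had a Tgm1 signal well above background.

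Tgm3, a soluble transglutaminase of epidermis and hair follicle, went the other way in Pirc rats. It was at 3.58, 4.18, 5.09 and 4.03 in untreated wildtype rats 13, 17, 21 and 25 and at 4.01, 3.51, 4.26 and 4.40 in DSS-treated wildtype rats 14, 18, 22 and 26. It was at 4.02, 3.14, 3.31 and 2.71 in untreated Pirc rats 11, 15, 19 and 23 and at 0.37, 1.57, 1.06 and 1.90 in DSS-treated Pirc rats 12, 16, 20 and 24. The wildtype groups lay over each other, and every DSS-treated Pirc rat lay below every rat of the other 3 groups. The log2 change with DSS was -2.07 (SE 0.37) in Pirc rats, a factor of 4.20 lower, and -0.17 (SE 0.37) in wildtype rats, the latter -0.29 without rat 26. The summed signal of 6 goblet cell markers was also lower in every DSS-treated Pirc rat (121 to 254 multiples of the 75th percentile signal) than in every untreated Pirc rat (263 to 301), and its part in the Tgm3 values was not tested.

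**Figure D2:**
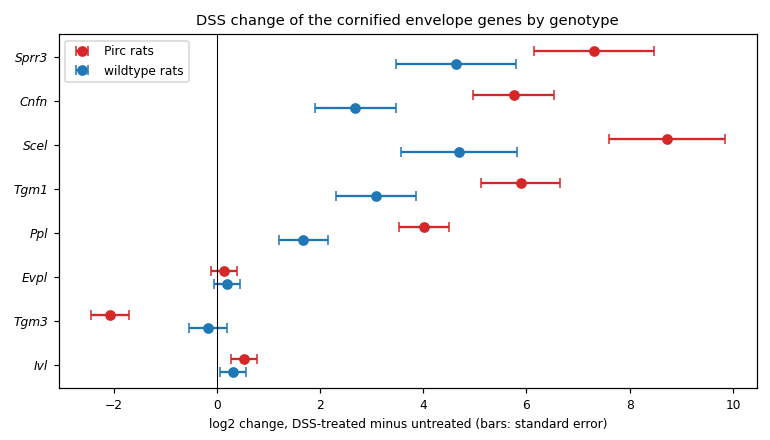
Log2 change with DSS (horizontal axis, DSS-treated minus untreated, limma estimate) of each measured member in Pirc and wildtype rats (n = 4 per group); bars are the standard error. Sprr3, Cnfn, Scel, Tgm1 and Ppl lie to the right of 0 in both genotypes, Tgm3 lies to the left in Pirc rats, and the points of Scel and Ivl include values below background.

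In DSS-treated wildtype rats the 5 members that were high after DSS shared both ends of the order of the rats, but not the whole order. In DSS-treated Pirc rats they shared only the lowest rat. Rat 18 lay above rat 14 for Sprr3 and Cnfn and below it for Scel, Tgm1 and Ppl. The highest DSS-treated Pirc rat was rat 24 for Sprr3 and Scel and rat 20 for Cnfn, Tgm1 and Ppl. Among the DSS-treated wildtype rats, rat 22 was highest and rat 26 lowest for Sprr3, Cnfn, Scel, Tgm1 and Ppl. Among the DSS-treated Pirc rats, rat 12 was lowest for these 5 members and also for Evpl and Tgm3. Over the 16 arrays the Pearson r of Sprr3 was 0.99 with Cnfn, 0.98 with Tgm1, 0.98 with Scel and 0.89 with Ppl, and it was -0.63 with Tgm3. After subtracting each group's mean from its 4 rats, r was 0.95 between Sprr3 and Cnfn, 0.92 between Sprr3 and Tgm1, 0.51 between Sprr3 and Ppl and 0.06 between Sprr3 and Tgm3. Taken over the untreated rats alone, this r of Sprr3 was 0.91 with Cnfn, 0.38 with Tgm1, 0.34 with Ppl and 0.42 with Tgm3. Evpl and Ppl had an r of 0.44 over all arrays and of 0.86 within groups. These are descriptions over 16 arrays that share the same groups and processing, out of 28 pairs of members.

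**Figure D3:**
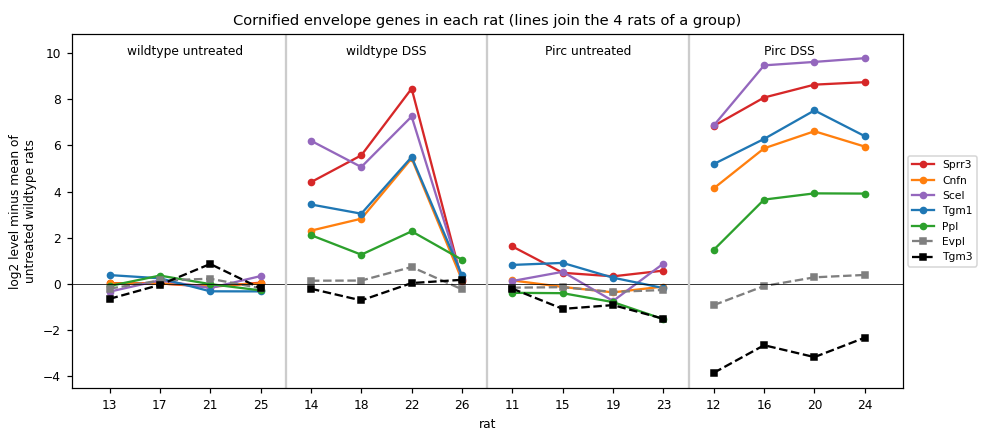
Level of 7 members in each rat relative to their mean in untreated wildtype rats (vertical axis, log2), with the 16 rats along the horizontal axis in their 4 groups; each line joins the values of one gene within a group and implies no order of the rats. In DSS-treated wildtype rats the 5 members that were high after DSS peak together in rat 22 and return to about 0 in rat 26, except Ppl, and in DSS-treated Pirc rats they are lowest in rat 12.

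Genes typical of other tissues were examined beside these values. Stratified squamous suprabasal markers (4 measured of 8 listed, Krt1, Krt4, Krt13 and Krt16) were summed on the linear scale, in multiples of the 75th percentile signal. The sum ran from 0.0548 to 0.0804 in untreated wildtype rats and from 0.0539 to 0.116 in untreated Pirc rats, where 1 to 3 of the 4 markers were well above background. In DSS-treated wildtype rats it was 1.27 in rat 14, 2.39 in rat 18, 28.3 in rat 22 and 0.0532 in rat 26. In DSS-treated Pirc rats it was 9.16 in rat 12, 23.6 in rat 16, 52.2 in rat 20 and 39.1 in rat 24. The order of the DSS-treated wildtype rats by this sum, with rat 22 highest and rat 26 lowest, was that of the members named above at both ends, and rat 12 was again the lowest of the DSS-treated Pirc rats. The 7 measured basal markers of stratified epithelium summed to 4.29 to 4.85 in untreated wildtype and 3.51 to 4.15 in untreated Pirc rats. With DSS they summed to 4.19 to 22.4 in wildtype and 11.3 to 52.0 in Pirc rats. Most of the untreated sums came from Tp63, whose mean level moved little with DSS. It was 2.03 untreated and 2.09 treated in wildtype rats, and 1.784 and 1.785 in Pirc rats. Of the 7 markers, 6 were called higher after DSS in Pirc rats (7.46% of all probes called) and 0 in wildtype rats (2.77%). Without rat 26, 2 of them, Krt14 and Ly6d, were called higher in wildtype rats (3.88%). Of the 4 suprabasal markers, 4 were called higher in Pirc rats, 2 in wildtype rats and 4 in wildtype rats without rat 26. The part of these cells in the members' values was not tested.

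Among 3 measured epidermis markers of 10 listed, 2 were never well above background, and the third, Lce1f, was so on all 16 arrays. Urothelial markers (5 measured, 1 never well above background) summed to between 0.350 and 0.472 in untreated rats of both genotypes, to between 0.399 and 0.832 in DSS-treated wildtype rats and to between 0.875 and 3.54 in DSS-treated Pirc rats. Neutrophil markers (6 measured) ran from 0.358 to 0.712 in untreated wildtype rats, from 0.912 to 4.39 in DSS-treated wildtype rats, from 1.0 to 1.70 in untreated Pirc rats and from 9.18 to 37.7 in DSS-treated Pirc rats. Fibroblast markers (7 measured) ran from 1.36 to 1.86, from 2.55 to 14.3, from 1.53 to 2.66 and from 5.45 to 14.7 in the same 4 groups. The colonocyte sum (12 measured) ran from 327 to 431 in untreated and from 380 to 493 in DSS-treated wildtype rats, and from 218 to 346 in untreated and from 211 to 336 in DSS-treated Pirc rats. It overlapped between treatments in both genotypes and between the untreated genotypes, but every DSS-treated Pirc rat lay below every DSS-treated wildtype rat. The goblet cell sum (6 measured) overlapped between untreated (211 to 300) and DSS-treated (211 to 279) wildtype rats but not between untreated (263 to 301) and DSS-treated (121 to 254) Pirc rats. Of the colonocyte markers Slc26a3 was called lower after DSS in Pirc rats (-1.72), and of the goblet cell markers Clca1 was (-2.07). However, 7 of the 12 colonocyte markers had a higher mean after DSS in Pirc rats, with a median log2 change of 0.07. Of the 6 goblet cell markers 1 had a higher mean, with a median of -0.56. The smooth muscle sum (7 measured) overlapped between treated and untreated rats in both genotypes. It was 3.51 to 14.6 treated and 4.19 to 9.69 untreated in wildtype rats. In Pirc rats it was 2.77 to 6.17 and 3.47 to 3.70. The wildtype highs were treated rat 26 and untreated rat 25, with the other rats at 3.51 to 3.88 and 4.19 to 4.27. Rat 26 also had the lowest neutrophil sum of its group, 0.912 against 3.26 to 4.39 in the others.

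The next question was whether the genotypes differed. In untreated rats 0 of the 8 members were called between Pirc and wildtype by limma, as were 0 of the 30367 probes (0%), while 3103 probes had an unadjusted p under 0.05. The log2 difference, Pirc minus wildtype, was 0.76 for Sprr3 (SE 1.16, limma adjusted p = 0.858, 95% interval -1.73 to 3.24). For Ppl it was -0.77 (SE 0.48, adjusted p = 0.615, interval -1.79 to 0.25), and for Tgm3 -0.92 (SE 0.37, adjusted p = 0.410, interval -1.72 to -0.12). The 95% intervals are not adjusted for the number of probes. Each SE is pooled over all 4 groups, so p and interval do not measure the spread of the untreated rats alone. Sprr3 had SDs of 0.08 in untreated wildtype, 0.59 in untreated Pirc and 3.45 in DSS-treated wildtype rats. For Cnfn these SDs were 0.05, 0.21 and 2.16. With only the untreated groups fitted, 0 members were called as well. The untreated genotypes did not overlap for Sprr3, where every Pirc rat was higher, or for Ppl, where every Pirc rat was lower, and 8.72% of all probes had no overlap in this comparison. The other members overlapped, with differences of -0.11 for Cnfn, 0.46 for Tgm1 and -0.22 for Evpl, and neither group measured Scel or Ivl above background.

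After DSS, 5 of the 8 members differed between genotypes in the limma fit, 4 higher in Pirc rats and 1 lower. Among all probes 5.47% were called, 3.1% higher and 2.37% lower. Tgm1 was higher by 3.26 on the log2 scale (SE 0.77, adjusted p = 0.0109, 95% interval 1.60 to 4.91). Cnfn was higher by 2.96 (SE 0.78, adjusted p = 0.0183), Scel by 4.24 (SE 1.12, adjusted p = 0.0183; second probe 3.76, adjusted p = 0.0164) and Ppl by 1.56 (SE 0.48, adjusted p = 0.0345). These 4 overlapped between the genotypes, since the level in wildtype rat 22 exceeded that in Pirc rat 12. Sprr3 was 3.43 higher in the mean (SE 1.16, 95% interval 0.94 to 5.91) but did not pass, with an adjusted p of 0.0542, and its groups had SDs of 3.45 in wildtype and 0.87 in Pirc rats. The median log2 difference was 2.26 over the 8 members and -0.11 over all probes.

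Tgm3 was lower in DSS-treated Pirc than in DSS-treated wildtype rats by a log2 difference of -2.82 (SE 0.37, limma adjusted p = 0.000568, 95% interval -3.62 to -2.02), a factor of 7.07. It was the only member whose groups did not overlap, which held for 18.8% of all probes. The colonocyte marker sum did not overlap between these groups either, at 211 to 336 in Pirc and 380 to 493 in wildtype rats. Such a sum weights bright probes most. The colonocyte markers Slc26a3 (-2.25) and Guca2a (-1.42) and the goblet cell marker Clca1 (-1.97) were called lower in Pirc rats. Of the 12 measured colonocyte markers 3 had a higher mean in Pirc rats, as did 2 of the 6 goblet cell markers. Without rat 26, the colonocyte marker Aqp8 was called higher in Pirc rats. The part of colonocytes and goblet cells in the difference of Tgm3 was not tested. Evpl differed by -0.28 (SE 0.26, adjusted p = 0.484, interval -0.83 to 0.27). Within each of the 2 slides, which hold 2 rats of every group, the difference had the same sign for Tgm3 (-2.79 and -2.85), Tgm1 (2.49 and 4.02), Cnfn (2.44 and 3.47), Scel (2.53 and 5.96), Ppl (0.87 and 2.25) and Sprr3 (2.47 and 4.38). Each group lies in 1 array column, and the effects of column and group cannot be told apart.

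The genotype calls after DSS depended on the fit and on single rats. When only the 2 DSS-treated groups were fitted, 1 member was called, Tgm3 (limma adjusted p = 0.0143), and the others had adjusted p of 0.0783 for Tgm1, 0.107 for Scel, 0.112 for Cnfn, 0.128 for Ppl and 0.192 for Sprr3. Without wildtype rat 26 there were 4 members called. Tgm1 (2.35, limma adjusted p = 0.0148), Cnfn (2.12, adjusted p = 0.0359), Scel (2.76, adjusted p = 0.0141) and Tgm3 (-2.70, adjusted p = 0.00178) passed, while Ppl (1.35, adjusted p = 0.0855) and Sprr3 (1.92, adjusted p = 0.0855) did not. Without wildtype rat 22, 6 members passed, Sprr3 among them (4.70, adjusted p = 0.0075). Without Pirc rat 20, 2 passed, Tgm1 and Tgm3.

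Over both treatments 2 members differed between Pirc and wildtype, with 2% of all probes called, 1.22% higher and 0.78% lower. Tgm1 was higher in Pirc rats by 1.86 (SE 0.55, limma adjusted p = 0.0301) and Tgm3 lower, at -1.87 (SE 0.26, adjusted p = 0.00102). Sprr3 (2.09, adjusted p = 0.096), Cnfn (1.42, adjusted p = 0.0918), Scel (2.22, adjusted p = 0.0677) and Ppl (0.40, adjusted p = 0.44) did not pass. Without rat 26, Scel passed as well (1.48, limma adjusted p = 0.0369). Tgm1 then stood at 1.41 (limma adjusted p = 0.0249) and Tgm3 at -1.81 (limma adjusted p = 0.00216). The Scel values here include the untreated rats, in which Scel was not well above background.

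**Figure D4:**
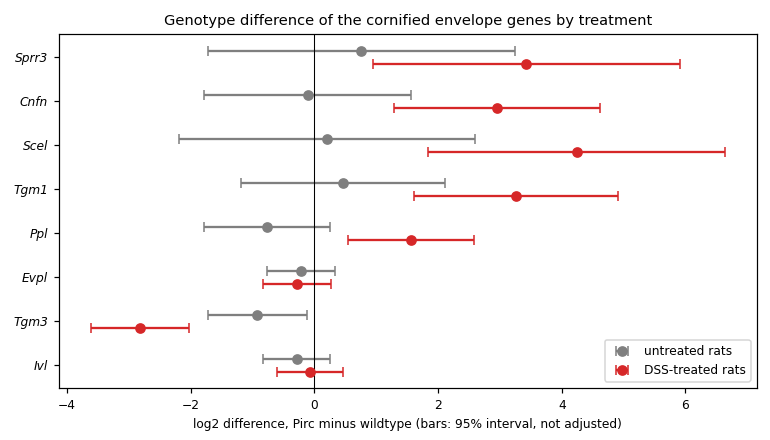
Log2 difference between Pirc and wildtype rats (horizontal axis, Pirc minus wildtype, limma estimate) of each measured member in untreated and DSS-treated rats (n = 4 per group); bars are 95% intervals, not adjusted for the number of probes. In DSS-treated rats the intervals of Sprr3, Cnfn, Scel, Tgm1 and Ppl lie above 0 and that of Tgm3 below, and the adjusted p of Sprr3 was 0.0542; in untreated rats the values of Scel, and in all rats those of Ivl, are below background.

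Whether the DSS change itself differed between genotypes was estimated as an interaction. This difference is made of the DSS changes that chose the list. Its p-values and intervals are therefore description only and no independent test of the members. No member was called (0 of 8), against 13 of the 30367 probes (0.0428%), all of them higher, and 3234 probes with an unadjusted p under 0.05. The estimates, the DSS change in Pirc minus that in wildtype rats, were 2.67 for Sprr3 (limma adjusted p = 0.589, 95% interval -0.84 to 6.18), 3.07 for Cnfn (adjusted p = 0.344, interval 0.71 to 5.43) and 2.80 for Tgm1 (adjusted p = 0.388, interval 0.46 to 5.13). They were 4.04 for Scel (adjusted p = 0.389, interval 0.65 to 7.43), 2.33 for Ppl (adjusted p = 0.255, interval 0.90 to 3.77) and -1.90 for Tgm3 (adjusted p = 0.241, interval -3.03 to -0.77). Evpl stood at -0.06 (interval -0.83 to 0.72). All Scel estimates of this interaction are nominal, since Scel was not well above background in any untreated rat or in rat 26. Without Pirc rat 12, the lowest of its group, Ppl passed with 2.92 (adjusted p = 0.0125). Without rat 26 the estimates were 1.17 for Sprr3, 2.23 for Cnfn, 2.55 for Scel, 1.89 for Tgm1, 2.12 for Ppl, -1.78 for Tgm3 and -0.20 for Evpl, and 0 members were called.

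Other genes of cornification were read from fixed lists, and the calls below are those of the limma fit over all probes. Many of these genes were near background without DSS, where a fitted log2 change is only nominal. For most of those named, the number of rats well above background or a lower bound of the fold is given. Among all probes 7.46% were called for DSS in Pirc rats, 5.51% higher and 1.95% lower. In wildtype rats 2.77% were called, 2.37% higher and 0.402% lower. Between DSS-treated genotypes 5.47% were called, 3.1% higher and 2.37% lower. Without rat 26, 3.88% of all probes were called for DSS in wildtype rats and 5.89% between DSS-treated genotypes. These shares stand beside the counts of every list below. Of the other genes of the epidermal differentiation complex, 11 of 59 listed were measured, and 6 were higher after DSS in Pirc rats and 0 lower, with a median log2 change of 2.57. The largest were S100a7l2 (8.19, at least 233-fold), S100a7a (7.10), Kprp (7.02) and Lce1f (3.49), a late envelope protein. S100a7a and Kprp were each well above background in 1 of the 4 untreated Pirc rats, and Lce1f in all 16 rats. In wildtype rats S100a7a was the single call (3.56), measured in 3 of 4 treated and 0 of 4 untreated rats, and no fold is given for it. After DSS S100a7a was higher in Pirc than in wildtype rats by 4.14 (SE 0.87, adjusted p = 0.00622), without overlap, and S100a3 by 1.25 (SE 0.35, adjusted p = 0.0238). Without rat 26, 4 were called higher in wildtype rats after DSS, and 1, S100a7a, between DSS-treated genotypes.

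Of 13 measured transglutaminase substrates and cystatins of the envelope, 7 were higher after DSS in Pirc rats (5.51% of all probes). In wildtype rats 0 were higher (2.37%), and 0 were lower in either genotype. The rises in Pirc rats included Dmkn, the secreted protein dermokine (9.92), Sbsn, suprabasin (6.77), Csta, a cysteine protease inhibitor of the envelope (6.28), and Serpinb2 (4.94). Of the 4 untreated Pirc rats, 1 was well above background for Dmkn, 1 for Sbsn, 3 for Serpinb2 and 4 for Csta. Between DSS-treated genotypes Dmkn (5.04, limma adjusted p = 0.0375), Serpinb2 (2.61, adjusted p = 0.0451) and Anxa1 (1.05, adjusted p = 0.0332) were higher in Pirc rats, each with overlap, and Dmkn was measured in 3 of the 4 wildtype rats. Without rat 26, 5 were called higher in wildtype rats after DSS and 0 between DSS-treated genotypes.

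Proteases and their inhibitors, which shed the outermost cells and trim envelope precursors, had 25 measured genes. After DSS 11 were higher and 1 lower in Pirc rats (5.51% and 1.95% of all probes). In wildtype rats 6 were higher and 1 lower (2.37% and 0.402%). Tmprss11d, a membrane-bound, trypsin-like serine protease of the airway, rose at least 294-fold in Pirc rats, and the kallikrein-related peptidases Klk12 (8.33), Klk13 (7.88) and Klk6 (7.46, at least 146-fold) also rose. Klk12 and Klk13 were each well above background in 3 of the 4 untreated Pirc rats. In wildtype rats Klk12 (5.44), Klk13 (4.94), Klk10 (4.56) and Klk6 (4.49) had the largest changes. Klk6 was measured in 3 of the 4 treated and 0 of the 4 untreated wildtype rats, Klk10 in 4 and 1, and Klk12 and Klk13 in 4 and 2. The gene that was lower in both was Padi3, a peptidylarginine deiminase, at -1.74 in Pirc and -1.52 in wildtype rats. Between DSS-treated genotypes 5 were higher in Pirc rats, led by Serpinb11 (3.86, limma adjusted p = 0.00967), Klk13 (3.76, adjusted p = 0.0316), Tmprss11d (3.58, adjusted p = 0.0377) and Spink5 (2.58, adjusted p = 0.0454), a kallikrein inhibitor, and Spint1 was lower (-1.06, adjusted p = 0.00262). Of the DSS-treated wildtype rats, 2 were well above background for Serpinb11 and 3 for Tmprss11d. Without rat 26, 9 were higher and 1 lower in wildtype rats after DSS, and 4 were higher and 1 lower in Pirc rats between DSS-treated genotypes, without Spink5.

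Of 8 measured desmosome genes 1 was higher after DSS in Pirc rats, where 5.51% of all probes were called higher. It was Dsg3, the desmoglein of basal stratified epithelium (2.57, measured in 3 of the 4 untreated Pirc rats). In wildtype rats 0 were called (2.77% of all probes), as between DSS-treated genotypes (5.47%). With 8 genes, nothing is read from these counts. Without rat 26, Dsg4 was called higher after DSS in wildtype rats and lower in DSS-treated Pirc than in DSS-treated wildtype rats. Dsg4 was well above background on only 5 of the 16 arrays, so its changes are nominal. Of 16 genes of the epidermal lipid barrier, 4 were higher in Pirc rats after DSS, Lipk (4.65, at least 19.9-fold), Dgat2 (2.90), Pnpla1 (1.34) and Aloxe3 (1.08), and 1 in wildtype rats, Dgat2 (1.70). Dgat2, which makes triacylglycerol, was also higher in Pirc than in wildtype rats after DSS (1.14, limma adjusted p = 0.0419). Without rat 26, 2 were higher in wildtype rats after DSS, Dgat2 and Aloxe3, and 0 were called between DSS-treated genotypes.

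The keratins of stratified epithelium, the filaments that the envelope encloses, had the largest median change of the lists, 5.99 in Pirc and 2.35 in wildtype rats after DSS. Of 16 measured, 10 were higher and 1, Krt24, lower in Pirc rats (5.51% and 1.95% of all probes), and 4 were higher in wildtype rats (2.37%). Krt24 was well above background on only 3 of the 16 arrays, so its change is nominal. Krt13, a keratin of internal stratified epithelia, was 10.52 higher in Pirc rats, Krt1 9.80, Krt17 9.36 (at least 617-fold) and Krt6c 8.25. Of the 4 untreated Pirc rats, 3 were well above background for Krt13, 1 for Krt1 and 4 for Krt6c. Between DSS-treated genotypes 6 keratins were higher in Pirc rats, including Krt13 (5.34, limma adjusted p = 0.0406), Krt15 (4.70, adjusted p = 0.00967, without overlap), Krt6c (4.27, adjusted p = 0.0335) and Krt17 (4.07, adjusted p = 0.0493). Krt13 and Krt17 were each measured in 3 of the 4 DSS-treated wildtype rats. Without rat 26, 8 were higher in wildtype rats after DSS, and between DSS-treated genotypes 5 were higher and 1, Krt24, lower in Pirc rats, without Krt17.

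Of 31 measured regulators of squamous differentiation, 7 were higher after DSS in Pirc rats (5.51% of all probes) and 3 in wildtype rats (2.37%). Their medians were 0.15 and 0.06, close to those of all probes. Sox2, a transcription factor of stem cells and of the developing esophagus, was at least 95.1-fold higher in Pirc rats, and Prdm1 (2.37) and Hopx (2.15) were also higher. In wildtype rats the calls included Fosl1 (3.61), a subunit of AP-1, and Prdm1 (2.23). Hopx, a homeodomain cofactor, was higher in Pirc than in wildtype rats after DSS by 2.58 (SE 0.31, limma adjusted p = 0.000362), without overlap. Sox2 (3.88, adjusted p = 0.0154) and Bnc1 (1.31, adjusted p = 0.0252) were also higher and Jund, another AP-1 subunit, lower (-1.02, adjusted p = 0.00356). Sox2 was measured in 3 and Bnc1 in 2 of the 4 DSS-treated wildtype rats. Without rat 26, 4 were higher in wildtype rats after DSS, and between DSS-treated genotypes 2 were higher, Sox2 and Hopx, and 2 lower, Jund among them. In each of these 7 lists 0 genes were called between untreated genotypes and 0 for the difference between the DSS changes. The lists were drawn up with earlier results of these arrays known, and their counts are read only beside the shares of all probes given above.

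**Figure D5:**
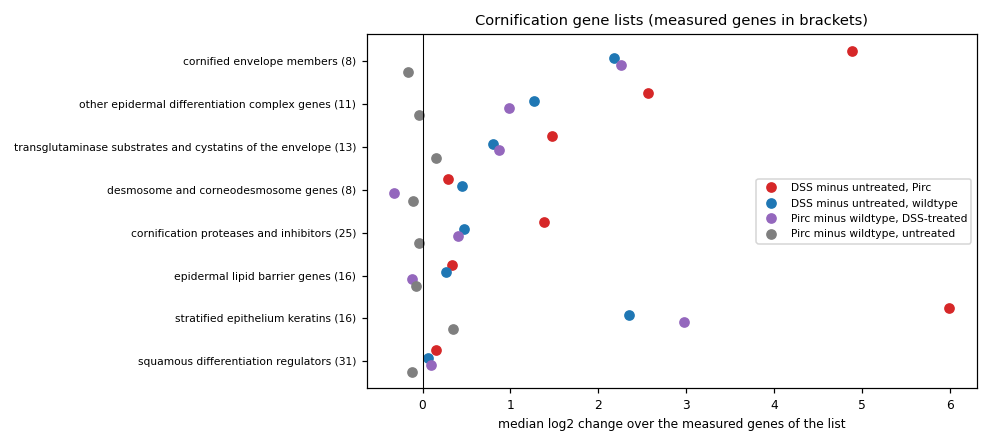
Median log2 change over the measured genes of each cornification list (horizontal axis; number of measured genes in brackets) in 4 comparisons, with the cornified envelope members on top. The keratins of stratified epithelium lie farthest to the right, at 5.99 for DSS in Pirc rats, and the desmosome, lipid barrier and regulator lists lie within 0.45 of 0 in all 4 comparisons.

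For the 5 members well above background on all 16 arrays, the genes with the most similar pattern were sought among 10357 other genes well above background throughout. The nearest to Sprr3 was Lgals7 (Pearson r 0.99 over 16 arrays, 0.98 within groups), followed by Krt6c, Spink5, Crabp2 and Csta, all with r of 0.98 or more. The nearest to Cnfn was Krt4 (0.99), followed by Crabp2, Klk11, Spink5 and Prdm4, so that Spink5 and Crabp2 stood on both lists. The nearest to Ppl was Prnp (0.95), then Ecm1, Gp1bb, Krt23 and Klk11. For Tgm3 they were Nr1h2 (0.97), Gnb5, Amn, Slc12a7 and Mov10, and for Evpl Mapk6 (0.81), Map1lc3a, Inpp5d, Uaca and Secisbp2l, so that neither of these members shared a neighbor with the other 3. These correlations describe arrays that share groups and treatment, and carry no test.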

How the data were processed

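Arrays of 16 rats, 4 per group by genotype and treatment, were analyzed. The authors deposited the output of Agilent Feature Extraction 10.7.3.1 for each array, whose processed signal is a single-color intensity, background-subtracted and linear, with no normalization across arrays. The submitters' notes also name Partek, whose output was not used. Each array holds 62976 spots, of which 4259 controls were left out. Between 71.1% and 80.3% of spots were well above background and 0 were saturated, and the number of arrays limits the precision. From the deposited intensity the log2 was taken, the log2 of the 75th percentile of the array subtracted and spots of a probe averaged, without outlier-flagged spots (25 probe values had only flagged spots, which were kept). Probes were named by accession through the RefSeq table of GRCr8: 18006 of 30367 probes matched 15159 genes and 12361 did not.

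All 16 arrays entered one lmFit and eBayes fit (limma 3.58.1, R 4.3.3) with a mean for each group, p-values were adjusted over all probes by Benjamini-Hochberg, and calls needed both a 2-fold change and an adjusted p no greater than 0.05. The script was tested on simulated data. The fit assumes 1 variance for the 4 groups. The rats are separate animals, and no 2 arrays held identical values (0 pairs).

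The members and lists were chosen with earlier results of these data known. Genes named are all members (the brightest probe where there are several), up to 4 largest calls of each list well above background in all rats of at least 1 group, and the 5 genes most correlated with each member. One gene that the rule names is not reported here. Genes outside this rule, such as the single calls of a list, were named after their values were seen. Alternatives were normexp background correction with an offset of 50 (on the median signal), quantile normalization, scaling to the median, a common floor, a filter on dim probes, flagged spots kept, probes of a gene averaged, slide or array row as a block, only the compared groups, no moderation, other thresholds and each rat left out.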

Additional observations from a re-analysis of the deposited data

Results flagged for a closer look

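Of 36 groups of 4 rats checked for a rat that stood apart from the other 3, 5 did, where chance gives about 1 in 20 groups, or 1.8. In DSS-treated Pirc rats, rat 12 stood below the others for Ppl (-2.76), for Scel (-2.11) and for the second probe of Scel (-3.17), all log2 levels. In untreated wildtype rats, rat 21 stood below the others for Sprr3 (-5.30) and Cnfn (-0.75), by a small distance in a group with little spread. The 2 Scel probes measure the same gene.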

How the results depend on the processing

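The count of members called between genotypes after DSS was 5 and fell to 1, Tgm3, when only the DSS-treated groups were fitted, where Tgm1, Scel, Cnfn and Ppl kept their values with adjusted p of 0.0783 to 0.128. Over both treatments the count rose from 2 to 5 at an adjusted p of 0.20. For DSS in wildtype rats the count of 3 was 0 under normexp, the common floor and no moderation, 1 with only the compared groups, and 5 with the filter on dim probes and at an adjusted p of 0.20. The other 87 counts stayed within a factor of 1.5. Leaving out each rat in turn gave 5 to 6 members for DSS over both genotypes, 6 to 6 for DSS in Pirc rats and 0 to 5 for DSS in wildtype rats (0 without 13, 14, 17, 18, 21, 22 or 25, 1 without 11, 15 or 19, and 5 without 26). It gave 1 to 5 for genotype over both treatments (1 without 11, 15, 20, 21 or 25, and 5 without 22), 0 to 0 in untreated rats, 2 to 6 after DSS (2 without 20) and 0 to 1 for the difference between DSS changes (1 without 12). Tgm3 between DSS-treated genotypes passed with every rat left out (-3.05 to -2.54).

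Some near-zero values turned sign. For Ivl between DSS-treated genotypes the value was 0.0700 under quantile normalization and ran from -0.23 to 0.0282 with each rat left out, above 0 without rats 12, 14 and 20. Between untreated genotypes Tgm1 was -0.14 and Scel -0.23 under normexp, and Scel ran from -0.0256 (without rat 23) to 0.51 with each rat left out. For Evpl the difference between DSS changes ran from -0.21 to 0.22, above 0 without rats 12, 13, 22 and 25. Sprr3 between DSS-treated genotypes passed under normexp (3.04, adjusted p = 0.0306) and with the filter on dim probes (adjusted p = 0.0343), and Ppl did not without moderation (adjusted p = 0.0534) or without rats 16, 18, 20, 24 or 26. Normexp lowered the dim members' DSS change in Pirc rats, to 4.71 for Scel, 4.08 for Tgm1 and 2.94 for Ppl, and moved the median of all probes for DSS from 0.06 to 0.15 over both genotypes. The causes were not tested.

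Slide and array row together as blocks, an alternative chosen after seeing the data, left every count of members within a factor of 1.5. No paired analysis was possible because the rat numbers are unique to each rat and are not shared between groups. Scel and Ivl lay at background in untreated rats, where no order can be read.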
